A study of Homo sapiens with 12 samples.

Results

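The mitochondrial ribosomal protein genes were described in LX2 cells, an established line of human hepatic stellate cells, the liver cells that lay down scar matrix when activated. The members were the protein-coding genes whose symbol is MRPL or MRPS followed by a number and at most 1 letter. By that rule 78 of the 60612 genes in the count table were members, 49 with an MRPL symbol (large subunit) and 29 with an MRPS symbol (small subunit). All 78 were detected in all 12 libraries, all passed the filter on low counts, and they stood among 21328 genes tested.

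The series concerns DNA of mitochondria and STING, a protein through which cells respond to DNA in the cytosol, when stellate cells are activated. Polyadenylated RNA was sequenced in 3 groups of 4 libraries. The STINGX+TGFb group received a compound known here by the code name STINGX (10 µM, 3 h) before TGFb at 5 ng/ml for 16 h, the TGFb group was given that TGFb alone, and the control group was left untreated. All 3 groups were LX2 cells that had been starved of serum for 16 h, begun 24 h after seeding, and no group with STINGX alone was analysed here. Every library is therefore from 1 immortalised line, without the other cells of a liver.

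Mitochondria keep ribosomes of their own, which translate the few messenger RNAs of the mitochondrial genome into core subunits of the respiratory chain and ATP synthase. The ribosomal RNAs come from the mitochondrial genome, but all proteins of the particle come from nuclear genes, are made in the cytosol and are imported. Many of the proteins descend from bacterial ribosomal proteins and the others are particular to mitochondria. Some symbols are historical. MRPS30 and MRPS18A encode proteins that sit in the large subunit, and the product of MRPS36 is now assigned to the alpha-ketoglutarate dehydrogenase complex.

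Library totals ran from 54035320 to 70787741 estimated counts, and members took 0.287% to 0.341% of them. Genes of the mitochondrial genome took 8.16% to 8.46% of counts in STINGX+TGFb libraries, 8.77% to 9.46% in TGFb libraries and 10.0% to 11.3% in control libraries. Of 12 stellate and fibroblast markers 10 were tested, with a summed level of 4852 to 5294 CPM in STINGX+TGFb, 10097 to 10370 CPM in TGFb and 6095 to 6238 CPM in control libraries, where CPM is a count scaled to a common library total after TMM scaling. DES and LRAT, both stellate markers, were at 0 in all libraries, as were ALB, APOB, TTR and FGB of the hepatocyte list. The hepatocyte, endothelial and epithelial lists summed to at most 65.1 CPM, and the macrophage and leukocyte list to 74.8 to 90.4 CPM in STINGX+TGFb, 30.2 to 35.6 CPM in TGFb and 72.9 to 80.9 CPM in control libraries. The part of these lists in the results was not tested.

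Member levels spanned a wide range, and the order of the genes was nearly the same in every group. On the FPKM scale, which corrects for length and depth, member means over 12 libraries ran from 1.38 to 64.9 with a median of 13.5, against a median of 84.3 over 79 cytosolic ribosomal protein genes and 1.79 over all genes tested. MRPL12, whose product forms the stalk that recruits translation factors and also binds the mitochondrial RNA polymerase, had the highest level, with 64.4 ± 1.53 FPKM in STINGX+TGFb, 65.2 ± 2.97 FPKM in TGFb and 65.1 ± 6.43 FPKM in control libraries (SD, n = 4 each). Those 3 values differed by less than their spread. MRPS26 (59.0 FPKM), MRPL51 (52.6 FPKM), MRPL14 (48.2 FPKM) and MRPL41 (39.0 FPKM) followed. MRPS26 encodes a mitochondria-specific small-subunit protein and MRPL14 the counterpart of bacterial L14, which faces the small subunit.

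The lowest mean levels were those of MRPL42 (1.38 FPKM), MRPL46 (2.71 FPKM), MRPL19 (3.19 FPKM), MRPS33 (3.23 FPKM) and MRPS18C (3.58 FPKM). These values depend on the lengths behind them. When counts were instead divided by the length of each GENCODE transcript they were assigned to, MRPL41 was at place 50 of 78 rather than 5, and MRPL42, 59.1% of whose counts were on a transcript of 15582 bases, was at place 67 rather than 78. Across the 78 members both measures had a Spearman correlation of 0.741, a description over genes of the same libraries. In the plot of per-length levels, neighbouring members mostly lie within each other's error bars.

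**Figure D1:**
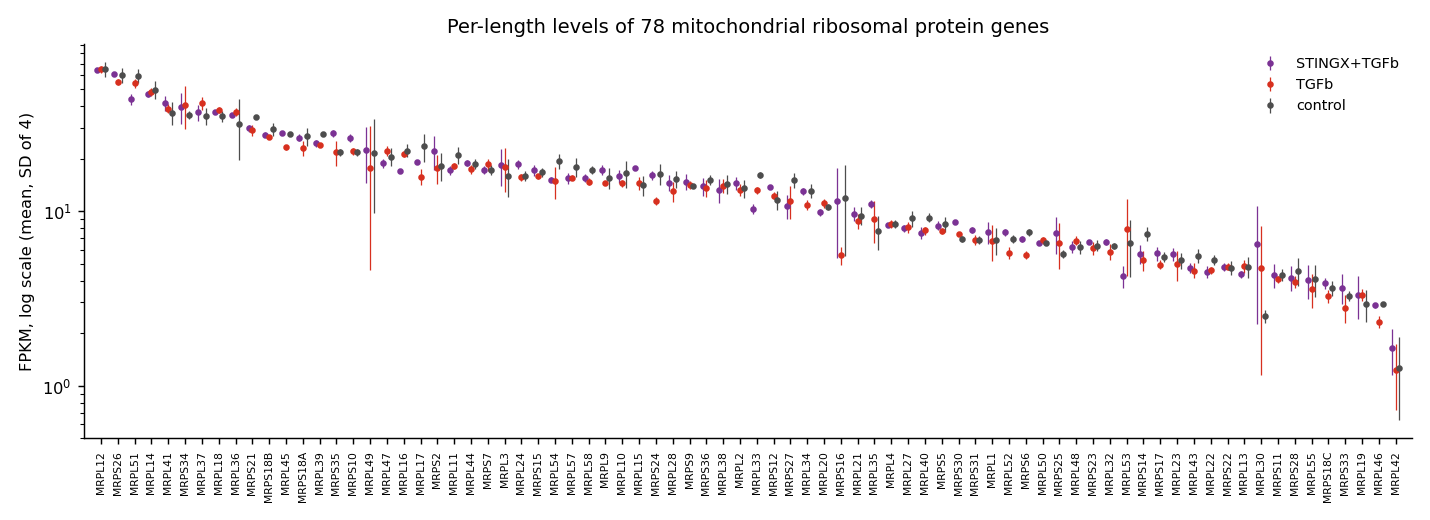
Mean FPKM of each of the 78 members on a log axis, ordered by the mean over all 12 libraries, for STINGX+TGFb (purple), TGFb (red) and control (grey). Points are means and bars SD of 4 libraries. Levels fall from 64.9 FPKM for MRPL12 to 1.38 FPKM for MRPL42, and MRPL49, MRPL30, MRPS16 and MRPL42 have the long bars.

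The summed level of the members was 3053 ± 41.7 CPM in STINGX+TGFb, 3169 ± 150 CPM in TGFb and 3230 ± 202 CPM in control libraries (SD, n = 4 each), differences about as large as the SDs. In bulk RNA a change in the RNA of each cell and a change in the mix of cells cannot be told apart. The 49 MRPL genes summed to 1747, 1826, 1821 and 1851 CPM in STINGX+TGFb, against 1946, 2062, 1907 and 1846 CPM in TGFb and 2001, 2143, 1820 and 1802 CPM in control libraries. STINGX+TGFb 1, 2 and 3 lay below the whole TGFb range and STINGX+TGFb 4 just inside it, while controls 3 and 4 lay among the STINGX+TGFb libraries. The 29 MRPS genes summed to 1247, 1241, 1239 and 1241 CPM in STINGX+TGFb, 1246, 1281, 1256 and 1132 CPM in TGFb and 1321, 1328, 1248 and 1255 CPM in control libraries. Here STINGX+TGFb libraries lay inside the TGFb range and below all controls.

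The controls were not uniform, and this touches each comparison with them. Cytosolic ribosomal protein genes took 3.45%, 3.43%, 3.03% and 2.96% of counts in controls 1 to 4, against 2.84% to 2.97% in STINGX+TGFb and 2.79% to 3.00% in TGFb libraries. Controls 1 and 2 thus stood above all other libraries in cytosolic ribosomal protein RNA, and they also held the highest MRPS sums. What sets these libraries apart was not tested, and counts of members are given below with and without them.

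**Figure D2:**
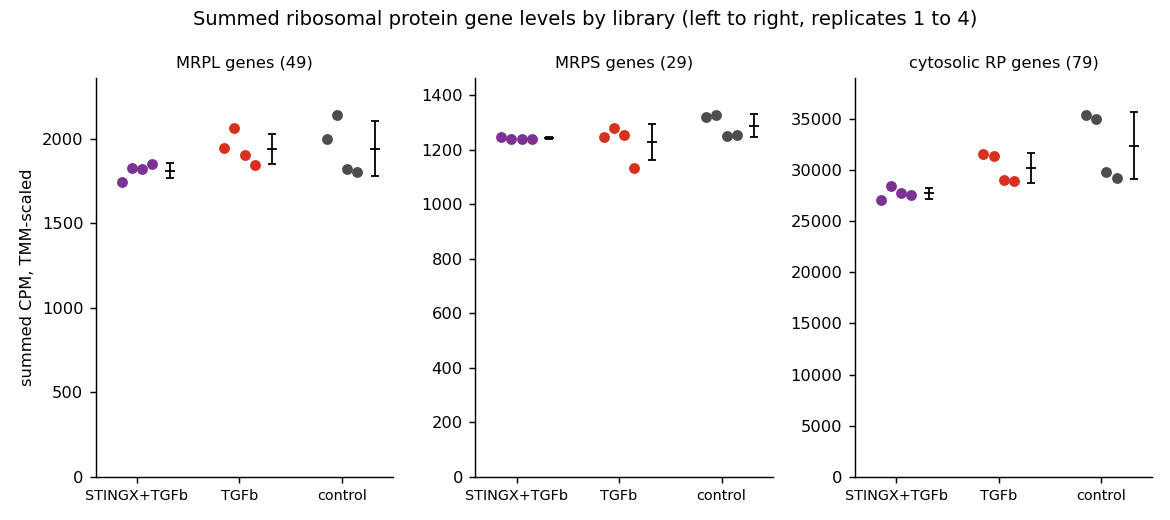
Summed TMM-scaled CPM per library of MRPL genes (left), MRPS genes (middle) and 79 cytosolic ribosomal protein genes (right). Each point is a library, and the bar beside each group shows its mean and SD. In all 3 panels controls 1 and 2 lie above controls 3 and 4, and STINGX+TGFb libraries scatter least.

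The first comparison asks how TGFb, the main fibrogenic cytokine of the liver, changed the members. With TGFb, 1 member was higher (background, 13.2% of genes tested) and 9 were lower than in control (background, 12.8%) at an adjusted p under 0.05, in edgeR's quasi-likelihood test with Benjamini-Hochberg adjustment over all genes tested. The median log2 fold change over the 78 members was -0.04, beside -0.00 over all genes tested. Its sign turned without controls 1 and 2 together (0.08, beside -0.01 over all genes tested) and without control 2 alone (0.01, beside -0.01). Groups of 4 libraries did not overlap for 10 members (2 above and 8 below control), beside 27.1% of all genes tested. As shares of the members, 1.28% were higher and 11.5% lower, the second near the background. None of the called members passed 1.5-fold.

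Of the 9 lower members 5 carried an MRPL symbol (10.2% of 49 MRPL genes) and 4 an MRPS symbol (13.8% of 29 MRPS genes), both near the background of 12.8%. MRPS24, the counterpart of bacterial S3 at the messenger RNA entry site, had 40.1, 37.2, 34.7 and 36.2 CPM in TGFb libraries, against 57.5, 58.4, 43.4 and 44.8 CPM in control libraries. All TGFb libraries were below all controls, controls 1 and 2 were the highest, and the log2 fold change was -0.46 ± 0.10 (SE), adjusted p = 0.00391. MRPS6, the counterpart of bacterial S6 on the platform, had 28.1, 32.2, 29.2 and 29.9 CPM with TGFb, against 38.2, 42.1, 36.4 and 37.8 CPM in control. Again the groups were fully apart, with a log2 fold change of -0.37 ± 0.06 (SE), adjusted p = 0.000633. MRPS14, the counterpart of bacterial S14 in the head, had 19.5, 14.0, 16.5 and 17.6 CPM with TGFb, against 20.2, 24.6, 23.9 and 23 CPM in control. Every TGFb library was below every control (log2 fold change -0.44 ± 0.12 (SE), adjusted p = 0.0151).

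These 3 genes kept their call in every alternative setting that was run, and the other 7 calls did not. A neighbour moved with 1 of them. SLC5A3, an inositol transporter gene on the same strand within the annotated span of MRPS6 (chr21:34073224-34143034, plus strand, build GRCh38 as in the deposited files), had 59.9 ± 2.82 CPM with TGFb and 84.0 ± 5.48 CPM in control (log2 fold change -0.49, adjusted p = 2.51e-05), and how reads were divided between both genes was not tested. MRPS24 shares its strand with the readthrough gene URGCP-MRPS24, which had 0.0459 ± 0.0917 CPM with TGFb and 0.116 ± 0.109 CPM in control. CACYBP overlaps MRPS14 on the opposite strand and did not pass the threshold (log2 fold change 0.13, adjusted p = 0.344).

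In the large subunit, MRPL17, the counterpart of bacterial L17 near the exit tunnel, had 48.1, 58.8, 45.7 and 52.6 CPM with TGFb, against 80.0, 87.3, 72.7 and 53.8 CPM in control (log2 fold change -0.52 ± 0.13 (SE), adjusted p = 0.00869). This was the largest called change, but control 4 lay inside the TGFb range. MRPL46, a mitochondria-specific protein of the central protuberance, had 18.3, 19.0, 16.5 and 20.04 CPM with TGFb, against 22.6, 23, 21.7 and 22.5 CPM in control (log2 fold change -0.28 ± 0.07 (SE), adjusted p = 0.00700), and the groups did not overlap. MRPL45, which anchors the ribosome at the inner membrane near the tunnel exit, had 49.2 ± 1.86 CPM with TGFb and 56.2 ± 2.39 CPM in control (SD, n = 4 each), a log2 fold change of -0.19 ± 0.05 (SE), adjusted p = 0.00990. MRPL33, MRPL39 and MRPS21 were also called lower, with log2 fold changes of -0.23 (adjusted p = 0.0278), -0.15 (adjusted p = 0.0481) and -0.19 (adjusted p = 0.0340). The MRPL33 call was lost without TGFb 3 or 4 or control 1 or 2 (adjusted p up to 0.0810), the MRPL39 call without STINGX+TGFb 2, 3 or 4, TGFb 1, 2, 3 or 4 or control 1, 2 or 3 (adjusted p up to 0.118), and the MRPS21 call without TGFb 1, 2 or 4 or control 1, 2 or 4 (adjusted p up to 0.0962). Without controls 1 and 2 together the calls of all 6 of these genes, MRPL17, MRPL46, MRPL45, MRPL33, MRPL39 and MRPS21, were lost (adjusted p up to 0.109, 0.0508, 0.0900, 0.212, 0.229 and 0.178 over the settings other than single libraries left out).

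MRPS30 was the only member called higher with TGFb. It had 58.4, 57.1, 57.7 and 54.6 CPM with TGFb, against 54.3, 52.1, 47.1 and 50.7 CPM in control, and the groups did not overlap, the lowest TGFb library standing just above the highest control. The log2 fold change was 0.16 ± 0.05 (SE), adjusted p = 0.0376. That call was lost without STINGX+TGFb 2 or 4, TGFb 1, 2 or 3 or control 2, 3 or 4 (adjusted p up to 0.0985). It was also lost in 6 of 13 other settings (adjusted p up to 0.141). Leaving out controls 1 and 2 together turned the split of calls to 7 higher and 4 lower (background, 10.5% and 9.74% of all genes in that setting). Scaling by library size alone gave 0 higher and 15 lower (background, 10.4% and 16.5%), so the count of members in each direction with TGFb rests on both choices.

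The second comparison asks how pretreatment with STINGX changed the members in cells given TGFb. In STINGX+TGFb libraries 3 members were higher (background, 13.7%) and 11 were lower than in TGFb libraries (background, 13.8%), with a median log2 fold change of -0.03 over the members and 0.01 over all genes tested. Of the 11 lower members 10 carried an MRPL symbol (10 of 49 MRPL genes) and 1 an MRPS symbol (1 of 29 MRPS genes), and the median log2 fold change was -0.10 over MRPL genes and 0.02 over MRPS genes. Groups did not overlap for 22 members, 5 above and 17 below TGFb, beside 31.6% of all genes tested. The plot of fold changes shows the lower calls as the left tail of the MRPL genes.

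**Figure D3:**
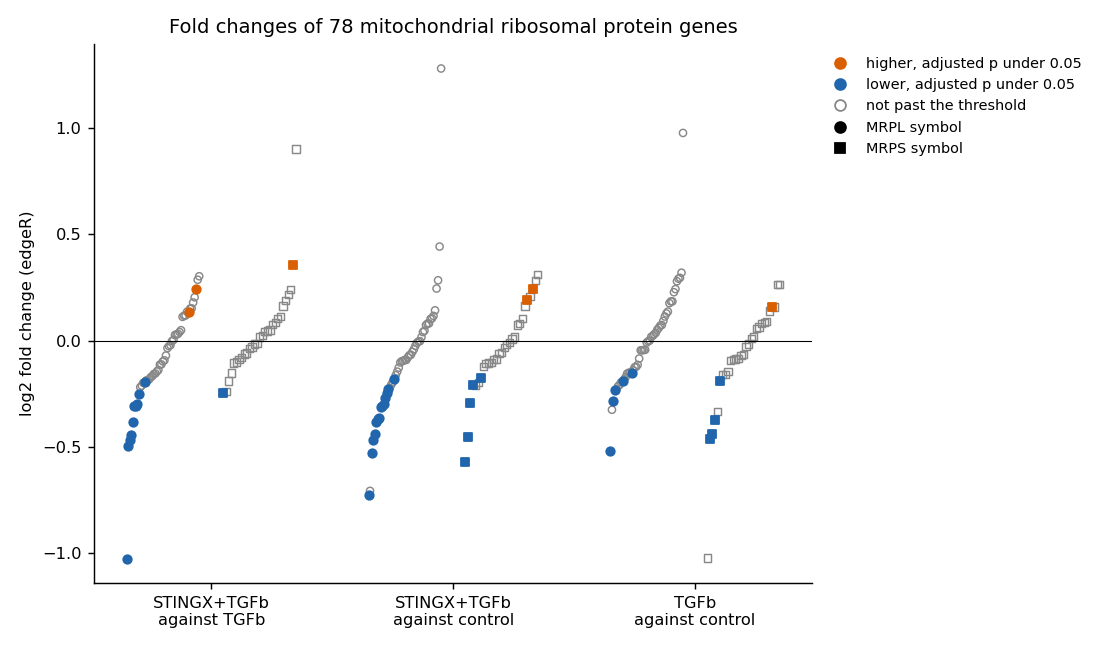
Log2 fold change of each of the 78 members in 3 comparisons, sorted by size within each column, with MRPL genes as circles and MRPS genes as squares. Filled orange points are higher and filled blue points lower at an adjusted p under 0.05, and open points did not pass. Between STINGX+TGFb and TGFb 10 of the 11 blue points are MRPL genes, and MRPL53 at -1.03 is the lowest.

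The large-subunit genes MRPL33, MRPL16, MRPL51, MRPL47 and MRPL20 were lower with STINGX in every alternative setting that was run. MRPL33 (ENSG00000243147, chr2:27771717-27779734, plus strand) encodes the counterpart of bacterial L33, a small protein of the large subunit. It had 17.3, 19.8, 16.9 and 17.4 CPM in STINGX+TGFb libraries, against 25.7, 26.8, 23.6 and 24.7 CPM in TGFb libraries. All STINGX+TGFb libraries were below all TGFb libraries, which in turn were below all controls (31.0, 31.2, 28.5 and 27.7 CPM). The log2 fold change between STINGX+TGFb and TGFb was -0.50 ± 0.07 (SE), adjusted p = 0.000188. MRPL16 (ENSG00000166902, chr11:59806140-59810778, minus strand), the counterpart of bacterial L16 near the peptidyl transferase centre, had 42.4, 43.3, 40.9 and 40.4 CPM in STINGX+TGFb libraries, against 58.5, 60.5, 57.5 and 54.4 CPM in TGFb libraries. These groups were also fully apart, and the log2 fold change was -0.47 ± 0.07 (SE), adjusted p = 0.000243. TGFb libraries and controls overlapped for this gene.

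MRPL51 (ENSG00000111639, chr12:6491886-6493841, minus strand) encodes a mitochondria-specific large-subunit protein and was among the most abundant members. It had 63.0, 69.8, 74.1 and 68.6 CPM in STINGX+TGFb libraries, against 102, 93.5, 88.3 and 90.3 CPM in TGFb libraries, with no overlap and a log2 fold change of -0.44 ± 0.08 (SE), adjusted p = 0.00111. NCAPD2, a condensin subunit gene that overlaps MRPL51 on the opposite strand, was lower as well. It had 136 ± 5.41 CPM in STINGX+TGFb and 290 ± 4.24 CPM in TGFb libraries (log2 fold change -1.10, adjusted p = 3.37e-09), and whether reads of the pair were separated by strand was not tested. MRPL47, the counterpart of bacterial L29 beside the exit tunnel, had 29 ± 1.96 CPM in STINGX+TGFb and 37.8 ± 2.86 CPM in TGFb libraries (SD, n = 4 each), a log2 fold change of -0.38 ± 0.09 (SE), adjusted p = 0.00800. ACTL6A, a chromatin remodelling subunit gene that overlaps MRPL47 on the opposite strand, was lower by less, with 61.1 ± 2.05 CPM in STINGX+TGFb and 68.7 ± 2.08 CPM in TGFb libraries (log2 fold change -0.17, adjusted p = 0.00857), and its part in the MRPL47 result was not tested. MRPL20, the counterpart of bacterial L20, had 30.9 ± 1.18 CPM in STINGX+TGFb and 38.2 ± 2.49 CPM in TGFb libraries (SD, n = 4 each), a log2 fold change of -0.31 ± 0.06 (SE), adjusted p = 0.00257. The groups did not overlap for MRPL47 or MRPL20.

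**Figure D4:**
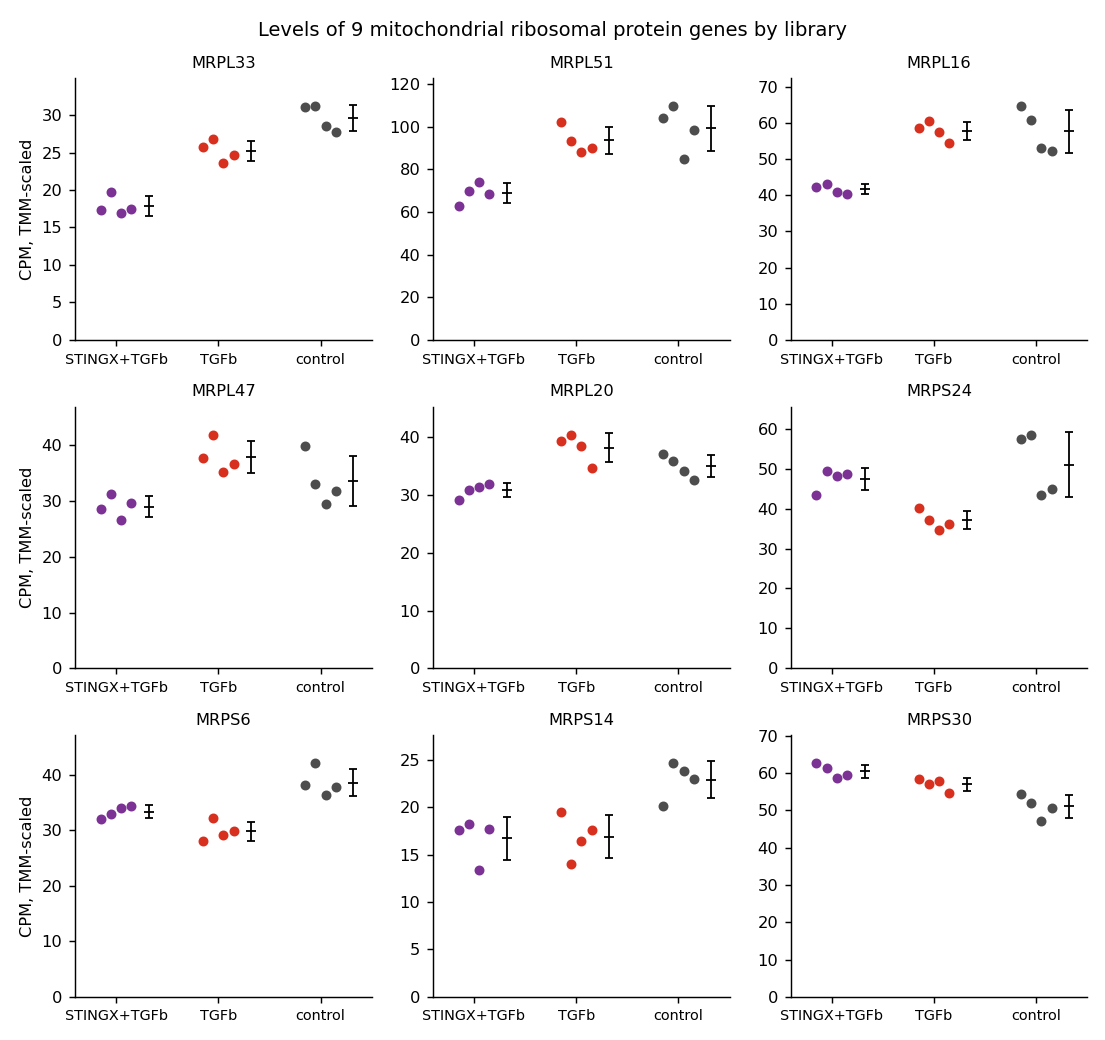
TMM-scaled CPM of 9 members in each library, with STINGX+TGFb (purple), TGFb (red) and control (grey) from left to right. Points are libraries in the order of their replicate numbers, and the bar beside each group is its mean and SD. The first 5 panels show the genes that were lower with STINGX in every setting run, with MRPL33 lowest in STINGX+TGFb, higher in TGFb and highest in control, and the last panel shows MRPS30 in the opposite order.

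Promoters of 5 members that the results turn on are shown, because 3 of these genes fell together with STINGX and the other two had calls in the higher direction in at least 1 comparison. The sequences are RefSeq promoters on build GRCh38.p14, 250 bases before to 50 bases after the RefSeq start of each gene, read 5′ to 3′ on its strand. For MRPL51 this window lies wholly inside the gene span given above from the deposited files, whose start is further upstream. Capitals mark the letters CCGGAAG (an ETS factor motif), GCGCANGC (an NRF1 motif) or AAGATGGC (a YY1 motif), or their reverse complements. MRPL33, MRPL51 and MRPL16 were lower with STINGX, MRPS24 was higher, and MRPS30 was higher in both treated groups than in control.
MRPL33 promoter (chr2:27771469-27771768, plus strand): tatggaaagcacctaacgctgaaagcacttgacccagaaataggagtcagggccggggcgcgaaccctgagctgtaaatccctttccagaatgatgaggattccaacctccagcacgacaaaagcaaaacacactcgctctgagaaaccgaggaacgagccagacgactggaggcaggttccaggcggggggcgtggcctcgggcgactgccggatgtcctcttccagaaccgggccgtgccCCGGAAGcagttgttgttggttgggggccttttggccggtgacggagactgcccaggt
MRPL51 promoter (chr12:6493213-6493512, minus strand): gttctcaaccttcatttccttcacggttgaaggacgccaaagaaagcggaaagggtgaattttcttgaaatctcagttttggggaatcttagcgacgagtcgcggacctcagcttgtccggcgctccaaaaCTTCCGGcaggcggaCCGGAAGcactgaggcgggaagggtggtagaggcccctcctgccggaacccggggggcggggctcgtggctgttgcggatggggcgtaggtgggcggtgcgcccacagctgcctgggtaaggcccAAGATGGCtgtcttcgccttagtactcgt
MRPL16 promoter (chr11:59810729-59811028, minus strand): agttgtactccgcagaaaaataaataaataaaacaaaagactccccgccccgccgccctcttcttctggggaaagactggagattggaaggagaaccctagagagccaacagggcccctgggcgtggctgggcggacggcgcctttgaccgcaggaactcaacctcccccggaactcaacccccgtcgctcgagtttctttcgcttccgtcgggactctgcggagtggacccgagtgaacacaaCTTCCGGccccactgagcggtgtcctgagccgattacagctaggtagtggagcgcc
MRPS24 promoter (chr7:43869468-43869767, minus strand): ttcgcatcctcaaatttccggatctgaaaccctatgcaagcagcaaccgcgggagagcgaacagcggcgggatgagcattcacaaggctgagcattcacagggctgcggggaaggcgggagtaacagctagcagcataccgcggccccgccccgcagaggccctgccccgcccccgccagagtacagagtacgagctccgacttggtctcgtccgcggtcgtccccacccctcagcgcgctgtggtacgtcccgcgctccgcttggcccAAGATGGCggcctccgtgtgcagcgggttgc
MRPS30 promoter (chr5:44808697-44808996, plus strand): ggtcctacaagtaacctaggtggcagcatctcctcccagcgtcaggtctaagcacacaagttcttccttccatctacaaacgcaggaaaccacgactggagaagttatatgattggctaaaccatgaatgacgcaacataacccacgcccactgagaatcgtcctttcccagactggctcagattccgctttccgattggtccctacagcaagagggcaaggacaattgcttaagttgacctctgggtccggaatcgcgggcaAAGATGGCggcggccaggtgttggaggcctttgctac

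MRPL33, MRPL51 and MRPL16 each hold the ETS letters and MRPL51 also the YY1 letters, while MRPS24 and MRPS30 hold the YY1 letters without the ETS ones, and none of the 5 holds the NRF1 letters in this window. Called members that are not printed blur this contrast. MRPL47 and MRPL20, lower with STINGX in every setting run, hold both the ETS and the YY1 letters. So do MRPL52 and MRPS10, which were each called higher in a comparison, while MRPL45, also called higher, holds the YY1 letters without the ETS ones. Of the 78 members 69 matched a promoter by symbol. The ETS letters were found in 29 of them (42.0%), against 22 of 64 promoters of cytosolic ribosomal protein genes (34.4%), 14.2% of 15843 protein-coding promoters and 10.7% of all 27305 promoters. The NRF1 letters were found in 23 (33.3%), against 17.2% of promoters of cytosolic ribosomal protein genes, 16.7% of protein-coding and 12.5% of all promoters. The YY1 letters, which were chosen after a look at the sequences, were found in 20 (29%), against 3.91% of protein-coding and 3.03% of all promoters, and in 6 of 64 promoters of cytosolic ribosomal protein genes (9.38%).

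Other simple elements were counted for comparison. CCAAT was in 20 member promoters (29%), against 36.4% of protein-coding and 35.7% of all promoters. GGGCGG was in 42 (60.9%), against 58.5% of protein-coding and 44.6% of all promoters, and TATAAA in 2 (2.90%), against 9.63% and 12%. All were searched on both strands, and these 3 were chosen after the data had been seen. A start on the opposite strand within 1000 bases upstream was annotated for 22 of the 69 (31.9%), against 17 of 64 cytosolic ribosomal protein genes (26.6%) and 18.3% of protein-coding genes. MRPL46 and MRPS11 form such a pair with each other, 320 bases apart.

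Calls were found among promoters with and without these letters. Between STINGX+TGFb and TGFb, 7 of 29 members with the ETS letters were lower and 1 higher, against 3 lower and 2 higher of 40 without them. For the YY1 letters, 5 of 20 members with them were lower and 3 higher, against 5 lower of 49 without them. The background was 13.8% of genes tested lower and 13.7% higher. The 3 members that were higher with STINGX, MRPS24, MRPL52 and MRPL45, all hold the YY1 letters. These counts are small, were looked at after the calls were known, and carry no test.

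MRPS24 had the largest rise with STINGX among the members that passed the threshold. It had 43.5, 49.4, 48.2 and 48.7 CPM in STINGX+TGFb libraries, against 40.1, 37.2, 34.7 and 36.2 CPM in TGFb libraries, with no overlap and a log2 fold change of 0.36 ± 0.10 (SE), adjusted p = 0.0173. Its level with STINGX lay inside the range of controls. That call was lost without TGFb 3 (adjusted p up to 0.0506). MRPL52, a mitochondria-specific large-subunit protein gene, had 26.9, 26.6, 29.1 and 27.7 CPM in STINGX+TGFb libraries, against 25.4, 24.5, 21.2 and 21.9 CPM in TGFb libraries, with no overlap. The log2 fold change was 0.24 ± 0.07 (SE), adjusted p = 0.0174, and the call was lost without STINGX+TGFb 3 or TGFb 3 or 4 (adjusted p up to 0.0539). MRPL45 had 54.2 ± 1.28 CPM in STINGX+TGFb and 49.2 ± 1.86 CPM in TGFb libraries (SD, n = 4 each), a log2 fold change of 0.14 ± 0.05 (SE), adjusted p = 0.0485, and its call was lost without STINGX+TGFb 1, 2, 3 or 4, TGFb 1, 3 or 4 or control 1, 2 or 4 (adjusted p up to 0.129). The MRPL45 call was also lost in 4 of 13 other settings (adjusted p up to 0.0872). Pseudogenes of MRPL45 held 5.53% as many counts as the gene, and how reads were divided between the copies was not tested.

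MRPL53 had the largest fall by size and the least even one. It had 3.46, 3.38, 3.79 and 2.62 CPM in STINGX+TGFb libraries, against 4.05, 6.06, 5.796 and 11.3 CPM in TGFb libraries, and TGFb 4 stood far above the rest of its group. Groups did not overlap (log2 fold change -1.03 ± 0.33 (SE), adjusted p = 0.0355), but the call was lost without STINGX+TGFb 1, 2, 3 or 4 or TGFb 2, 3 or 4 (adjusted p up to 0.101). It was also lost in 5 of 13 other settings (adjusted p up to 0.0763). MRPL53 overlaps CCDC142 on the same strand, which did not pass the threshold (log2 fold change 0.11, adjusted p = 0.360), and a long noncoding RNA gene, ENSG00000286883, on the opposite strand, which did not pass either (log2 fold change -0.24, adjusted p = 0.314). MRPL50, MRPL37, MRPL13, MRPL48 and MRPS7 were also called lower, by log2 fold changes of -0.19 (adjusted p = 0.0179), -0.31 (adjusted p = 0.0441), -0.30 (adjusted p = 0.0379), -0.25 (adjusted p = 0.0448) and -0.25 (adjusted p = 0.0248). SSBP3, which overlaps MRPL37 on the opposite strand, was lower too, with 61.1 ± 3.81 CPM in STINGX+TGFb and 97.8 ± 8.92 CPM in TGFb libraries (log2 fold change -0.68, adjusted p = 1.37e-05), and its part in the MRPL37 result was not tested. The MRPL50 call was lost without STINGX+TGFb 3 or TGFb 2 (adjusted p up to 0.0611), the MRPL37 call without STINGX+TGFb 1, 2, 3 or 4, TGFb 1, 3 or 4 or control 4 (adjusted p up to 0.116), and the MRPL13 call without STINGX+TGFb 1, 2 or 3 or TGFb 1 or 2 (adjusted p up to 0.108). That of MRPL48 was lost without STINGX+TGFb 2, 3 or 4, TGFb 1, 2 or 3 or control 4 (adjusted p up to 0.127), and that of MRPS7 without STINGX+TGFb 1 or 3 or TGFb 1, 2 or 3 (adjusted p up to 0.0736). With library size alone and with either FPKM scale the calls of MRPL50, MRPL37, MRPL13, MRPL48 and MRPS7 were all lost. Over the settings other than single libraries left out their adjusted p reached 0.498, 0.228, 0.270, 0.313 and 0.266. Without STINGX+TGFb 1, 2 or 3 the count of lower members was 7, 7 or 5, and without TGFb 1, 2 or 3 it was 7, 6 or 7 (background in these settings, 11.7% to 12.2%). Scaled by library size alone, 12 members were higher and 5 lower (background, 23.4% and 8.86%), a setting that shifted the median of all genes to 0.15 (log2) and that of the members to 0.11, and in which the 5 genes named first were the lower ones.

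The third comparison sets STINGX+TGFb against control, so it holds both treatments. Here 2 members were higher (background, 17.2%) and 19 were lower (background, 17.0%), 24.4% of the 78, with a median log2 fold change of -0.08 over the members and 0.00 over all genes tested. Without controls 1 and 2 together the median over the members turned to 0.03, beside -0.00 over all genes tested, and with library size alone it was -0.00, beside 0.08. Groups did not overlap for 18 members, 5 above and 13 below control, beside 34.5% of all genes tested. Of the 19 lower members 14 had an MRPL symbol (28.6% of 49 MRPL genes) and 5 an MRPS symbol (17.2% of 29 MRPS genes), beside the background of 17.0%. This comparison shares its libraries with both others and is no independent evidence of the same genes.

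MRPL33 had the largest fall, with 17.9 ± 1.29 CPM in STINGX+TGFb and 29.6 ± 1.75 CPM in control libraries (SD, n = 4 each) and a log2 fold change of -0.73 ± 0.07 (SE), adjusted p = 5.22e-06. MRPL51 and MRPL16 had log2 fold changes of -0.53 (adjusted p = 0.000233) and -0.47 (adjusted p = 0.000192). NCAPD2, which overlaps MRPL51 on the opposite strand, was lower here too, with 135.5 ± 5.41 CPM in STINGX+TGFb and 320 ± 20.5 CPM in control libraries (log2 fold change -1.24, adjusted p = 1.49e-09). Its part in the MRPL51 result was not tested. MRPS14 had 17.6, 18.2, 13.4 and 17.7 CPM in STINGX+TGFb libraries, against 20.2, 24.6, 23.9 and 23 CPM in control (log2 fold change -0.45 ± 0.12 (SE), adjusted p = 0.00951) and 14.0 to 19.5 CPM in TGFb libraries, whose range overlapped that of STINGX+TGFb. MRPL39, MRPL40 and MRPS21, with -0.25 (adjusted p = 0.00227), -0.37 (adjusted p = 0.00318) and -0.29 (adjusted p = 0.00229), were likewise lower in every setting run. C22orf39, which overlaps MRPL40 on the opposite strand, was lower as well, with 11.4 ± 1.02 CPM in STINGX+TGFb and 19.7 ± 2.94 CPM in control libraries (log2 fold change -0.79, adjusted p = 9.3e-05), and its part in the MRPL40 result was not tested. MRPL40 encodes a mitochondria-specific protein of the central protuberance, and MRPS21 the counterpart of bacterial S21. MRPL11, the counterpart of bacterial L11 at the factor-binding stalk, had a log2 fold change of -0.36 ± 0.08 (SE), adjusted p = 0.00370, and MRPL22, the counterpart of bacterial L22 in the tunnel wall, of -0.31 ± 0.07 (SE), adjusted p = 0.00600. Neither passed once controls 1 and 2 were left out together.

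MRPS27, which encodes a pentatricopeptide repeat protein of the small subunit, had 85.4, 60.5, 82.1 and 86.7 CPM in STINGX+TGFb libraries, against 126, 103, 121 and 118 CPM in control (log2 fold change -0.57 ± 0.15 (SE), adjusted p = 0.0120), a call lost without controls 1 and 2 together (adjusted p = 0.0511). The groups were apart, but 14 transcripts shared its counts, and the one that held most over the 12 libraries is annotated as a retained intron of 4435 bases. Its share was 67.9, 56.5, 66.5 and 65.8% in STINGX+TGFb libraries and 68.4, 72.6, 1.97 and 1.27% in controls 1 to 4, so controls 3 and 4 counted almost none of it.

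Both members called higher were MRPS30 and MRPS10. MRPS30 had 62.6, 61.3, 58.6 and 59.6 CPM in STINGX+TGFb libraries, against 54.3, 52.1, 47.1 and 50.7 CPM in control, with no overlap and a log2 fold change of 0.25 ± 0.05 (SE), adjusted p = 0.00231, which held in every setting run. MRPS10, the counterpart of bacterial S10 in the head, had 59.3, 67.2, 59.9 and 62.4 CPM in STINGX+TGFb libraries, against 54.4, 58.8, 52.8 and 51.5 CPM in control (log2 fold change 0.19 ± 0.06 (SE), adjusted p = 0.0236), and was lost without STINGX+TGFb 2 or 4 or control 3 or 4 (adjusted p up to 0.0791). The MRPS10 call was also lost with upper quartile scaling (adjusted p = 0.0703). Leaving out controls 1 and 2 together changed the split to 5 higher and 7 lower (background, 13.1% in each direction). Library size alone changed it to 6 higher and 11 lower (background, 21.96% and 13.5%). Of the 78 members, the share lower lay below the background in the first setting and near it in the second. The excess of lower members over the background thus rests on both choices. Without STINGX+TGFb 1, control 1 or control 2 alone, 11, 12 or 10 members were lower (background, 14.5%, 14.8% or 14.7%).

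Several members stand apart by role rather than by change. MRPL58, a peptidyl-tRNA hydrolase that frees stalled ribosomes and is built into the large subunit, had 19.5 ± 0.978 CPM in STINGX+TGFb, 20.4 ± 1.14 CPM in TGFb and 22.8 ± 1.57 CPM in control libraries (SD, n = 4 each). It passed the threshold between STINGX+TGFb and control, with -0.23 (adjusted p = 0.0245), and lost it without STINGX+TGFb 1 or 4 or control 1 or 2 (adjusted p up to 0.0752). That call was also lost with library size alone, with log2(FPKM + 0.1) and without controls 1 and 2 together (adjusted p up to 0.210). MRPL12 did not pass in any comparison, with log2 fold changes of -0.16 (adjusted p = 0.142) for STINGX+TGFb against TGFb, -0.10 (adjusted p = 0.352) for STINGX+TGFb against control and 0.06 (adjusted p = 0.611) for TGFb against control. MRPS36 did not pass either, with -0.10 (adjusted p = 0.483), -0.20 (adjusted p = 0.142) and -0.09 (adjusted p = 0.548) in the same order.

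MRPS18A, MRPS18B and MRPS18C are 3 homologues of bacterial S18 that occupy different places in the particle. MRPS18A had 38.3 ± 1.51 CPM in STINGX+TGFb, 36.9 ± 4.01 CPM in TGFb and 41.3 ± 5.66 CPM in control libraries, and MRPS18C had 21.3 ± 1.57, 19.8 ± 1.87 and 21.1 ± 2.39 CPM in the same groups (SD, n = 4 each). Neither passed the threshold in any comparison. MRPS18B had 54.6 ± 1.35 CPM in STINGX+TGFb, 58.0 ± 0.874 CPM in TGFb and 61.7 ± 6.19 CPM in control libraries, and passed only against control in the STINGX+TGFb group (-0.18 (adjusted p = 0.0454)), a call lost without STINGX+TGFb 1, 2, 3 or 4, TGFb 1, 2, 3 or 4 or control 1 or 2 (adjusted p up to 0.117). That call was also lost in 8 of 13 other settings (adjusted p up to 0.313). Members were also split by descent. Between STINGX+TGFb and TGFb, 6 of 48 with a counterpart (12.5%) and 5 of 30 without a listed one (16.7%) were lower. Both shares lay near the background of 13.8%.

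Replicates lay close together for most members and far apart for a few. The median coefficient of variation within groups was 9.44% over the members, against 9.26% over 9960 genes in the same range of mean CPM and 17.9% over all genes tested. It was lowest for MRPL50 (3.53%), MRPL45 (3.55%) and MRPL39 (3.60%). It exceeded 30% for 5 members, MRPL30 (57.9%), MRPL49 (56.7%), MRPS16 (43.4%), MRPL42 (41.4%) and MRPL53 (35.0%), which is 6.41% of the members beside 7.50% of the genes in that range.

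MRPL49, whose start lies 49 bases from that of the ribosomal protein gene FAU on the other strand, had 51.7, 58.0, 107 and 96.2 CPM in STINGX+TGFb, 21.8, 114, 108 and 27.3 CPM in TGFb and 27.3, 113, 117 and 60.3 CPM in control libraries. High and low libraries occurred in each group, up to 5.24-fold apart within TGFb. MRPL30 had 14.7, 16.1, 56.5 and 51.8 CPM in STINGX+TGFb, 18.5, 59.7, 18.8 and 14.8 CPM in TGFb and 14.0, 16.3, 13.5 and 13.3 CPM in control libraries, so STINGX+TGFb 3 and 4 and TGFb 2 stood above all others. MRPS16 had 56.6, 21.9, 48.9 and 17.9 CPM in STINGX+TGFb, 17.0, 22.5, 18.3 and 19.98 CPM in TGFb and 21.2, 23, 52.0 and 61.6 CPM in control libraries. For MRPS16 the high libraries were STINGX+TGFb 1 and 3 and controls 3 and 4. None of these genes passed the threshold in any comparison, although MRPL30 had a log2 fold change of 1.28 (adjusted p = 0.109) between STINGX+TGFb and control.

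The counts of these genes also moved between annotated transcripts. Of the counts of MRPL49 over all libraries, 48.8% were assigned to a protein-coding transcript, 21.3% to one with a retained intron and 21.2% to a processed transcript, and the share of the first ran over 91.2 percentage points between libraries. The share of the most abundant transcript ran over at least 50 points for 11 members. MRPS2 had the widest run, 91.6 points, with 57.7, 7.73, 73.1 and 7.64% in STINGX+TGFb, 82.2, 92.4, 92.8 and 90.5% in TGFb and 86.6, 1.24, 90.3 and 89.7% in control libraries, and STINGX+TGFb libraries lay below all TGFb libraries but not below control 2. Whether such shifts come from the cells or from how reads were assigned was not tested.

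**Figure D5:**
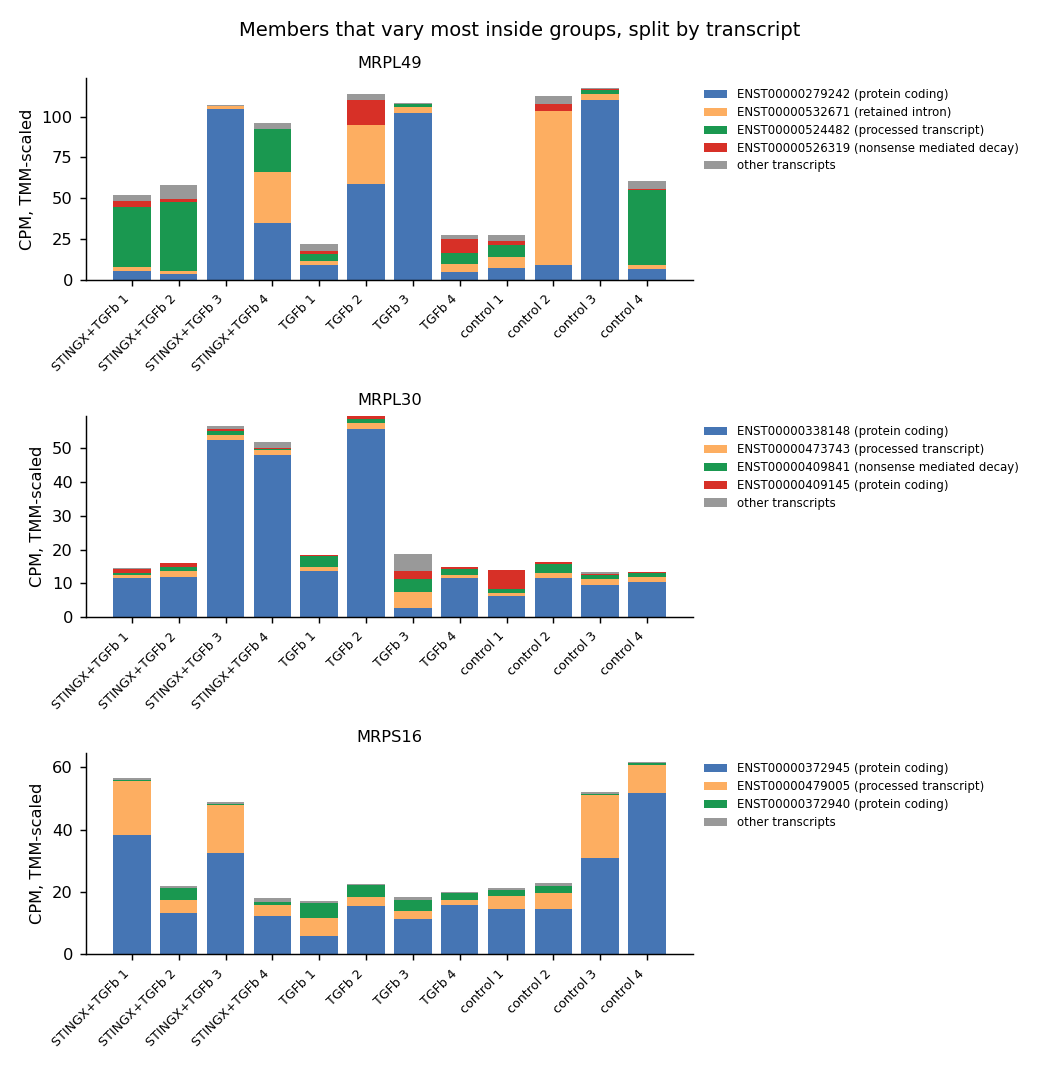
TMM-scaled CPM of MRPL49, MRPL30 and MRPS16 in each of the 12 libraries, stacked by annotated transcript. Libraries of 1 group differ by up to 5.24-fold for MRPL49, and the transcript that carries most of its counts changes from library to library.

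The share of the most abundant transcript was also compared between groups. Among 70 members with at least 2 counted transcripts and at least 100 counts in every library, the share of the most abundant transcript did not overlap between TGFb and control for 3 (background, 4.55% of 11353 genes), between STINGX+TGFb and TGFb for 8 (background, 6.41%) and between STINGX+TGFb and control for 9 (background, 7.82%). The 8 and the 9 of 70 were larger shares than their backgrounds, and the 3 of 70 lay near its own. No test was run on these counts. MRPL51 was among the 8 and among the 9. Its most abundant transcript, protein-coding and 1234 bases long, took 73.4, 75.3, 68.0 and 73.7% of the counts in STINGX+TGFb libraries, against 57.1, 64.9, 57.1 and 56.3% in TGFb libraries, so the share was higher where the gene was lower. For MRPS30 the most abundant transcript took 80.6, 76.9, 75.0 and 79.3% in STINGX+TGFb libraries, against 73.2, 71.6, 73.2 and 72.5% in TGFb libraries, and these groups were apart as well. These shares are estimates of the authors' software, and 5 members had a most abundant transcript that is not annotated as protein-coding.

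The partners of the members in the particle and in translation moved in both directions. Of 5 ribosome proteins without an MRP symbol, 1 fell with STINGX against TGFb (20%, background 13.8% of genes tested). PTCD3, a pentatricopeptide repeat protein at the messenger RNA entrance, had 72.9 ± 0.289 CPM in STINGX+TGFb, 91.7 ± 3.40 CPM in TGFb and 91.2 ± 4.70 CPM in control libraries (SD, n = 4 each), a log2 fold change of -0.33 ± 0.05 (SE), adjusted p = 0.000125 against TGFb. Of 15 translation factors, 2 were higher and 2 lower with STINGX (13.3% each, near the background of 13.7% and 13.8%). TUFM, the elongation factor that delivers tRNA, fell (-0.24 (adjusted p = 0.00107)) as did SLIRP, the partner of LRPPRC in holding mitochondrial messenger RNA (-0.38 (adjusted p = 0.0375)), while GUF1, a homologue of bacterial LepA, rose (0.26 (adjusted p = 0.00147)) as did TACO1, an activator of cytochrome oxidase translation (0.22 (adjusted p = 0.0260)). With TGFb, 3 factors were higher than in control and 1 lower (20% and 6.67%, background 13.2% and 12.8%). LRPPRC rose (0.15 (adjusted p = 0.00507)), as did GUF1 (0.17 (adjusted p = 0.0253)) and the elongation factor GFM1 (0.14 (adjusted p = 0.0414)), and the initiation factor MTIF3 fell (-0.30 (adjusted p = 0.0278)).

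Of 30 assembly and rRNA maturation factors, 3 were higher and 2 lower with TGFb than in control (10% and 6.67%, below the background of 13.2% and 12.8%). TFB1M, which methylates the small-subunit rRNA, had 13.3 ± 0.678 CPM in STINGX+TGFb, 14.3 ± 1.02 CPM in TGFb and 20.2 ± 2.13 CPM in control libraries, a log2 fold change of -0.49 ± 0.09 (SE), adjusted p = 0.00103 between TGFb and control. METTL15, another methyltransferase of that rRNA, had 3.58 ± 2.28 CPM with TGFb and 7.86 ± 1.18 CPM in control (-1.16 (adjusted p = 0.0199)), while MPV17L2 and FASTKD2, which act on large-subunit assembly, rose (0.26 (adjusted p = 0.0409) and 0.19 (adjusted p = 0.0189)). Against TGFb, 1 of the 30 was higher in STINGX+TGFb (3.33%, background 13.7%), NGRN (0.19 (adjusted p = 0.0197)). Of 13 transcription and RNA decay factors, 3 were higher with TGFb (23.1%, background 13.2%) and 3 lower with STINGX (23.1%, background 13.8%). PNPT1, the mitochondrial polynucleotide phosphorylase, was in both counts, with 32.5 ± 1.23 CPM in STINGX+TGFb, 40.6 ± 0.840 CPM in TGFb and 27.6 ± 1.55 CPM in control libraries, and HSD17B10, a subunit of mitochondrial RNase P, was the largest fall with STINGX (-0.43 (adjusted p = 0.00277)).

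Regulators of mitochondrial gene programmes did not move as a block. Of 12, 4 were higher and 2 lower with TGFb than in control (33.3% and 16.7%, background 13.2% and 12.8%). In STINGX+TGFb 3 were higher and 1 lower than in TGFb libraries (25% and 8.33%, background 13.7% and 13.8%). PPRC1, a coactivator of the PGC-1 family, rose with TGFb (0.54 (adjusted p = 5.2e-05)), as did ESRRA (0.44 (adjusted p = 0.0311)) and GABPB1 (0.40 (adjusted p = 0.00720)), while TFE3 fell with TGFb (-0.34 (adjusted p = 9.38e-06)) and rose with STINGX (0.38 (adjusted p = 2.88e-06)). GABPA, the ETS factor of this list, rose with STINGX against TGFb (0.16 (adjusted p = 0.0384)). PPRC1 was not the largest called change of the list with TGFb. Past 1.5-fold between TGFb and control were 2 called regulators, whose fold changes are not among those given here. PPARGC1A was barely expressed, at 0.361 ± 0.247 CPM in STINGX+TGFb, 0.0720 ± 0.0998 CPM in TGFb and 1.11 ± 0.405 CPM in control libraries. NRF1 and TFAM did not pass in any comparison, and MYC, at 16.1 ± 2.03 CPM in STINGX+TGFb, 73.9 ± 69.2 CPM in TGFb and 50.4 ± 36.3 CPM in control libraries, did not either, its libraries being spread widely.

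The RNAs that these proteins assemble with or translate changed too. MT-RNR1, the rRNA of the small subunit, had 977 ± 14.9 CPM in STINGX+TGFb, 921 ± 81.2 CPM in TGFb and 1582 ± 266 CPM in control libraries, a log2 fold change of -0.78 ± 0.10 (SE), adjusted p = 0.000138 between TGFb and control. MT-RNR2, the rRNA of the large subunit, had 6721 ± 106 CPM, 5344 ± 182 CPM and 6632 ± 368 CPM in the same groups, falling with TGFb (-0.31 (adjusted p = 5.75e-05)) and rising with STINGX against TGFb (0.33 (adjusted p = 3.3e-05)). Both rRNAs were read here through a poly(A) selection. Of the 15 mitochondrially encoded rRNAs and messenger RNAs, 1 was higher (6.67%) and 11 were lower (73.3%) in STINGX+TGFb than in TGFb libraries. The background there was 13.7% and 13.8%. In TGFb libraries 8 were lower than in control libraries (53.3%, background 12.8%). MT-CO3 and MT-CO2, subunits of cytochrome oxidase, fell most with STINGX (-0.67 (adjusted p = 1.13e-06) and -0.62 (adjusted p = 1.46e-07)). Among 79 cytosolic ribosomal protein genes 12 were lower in STINGX+TGFb than in TGFb libraries (15.2%, background 13.8% of genes tested). Against control 37 were lower in STINGX+TGFb (46.8%, background 17.0%) and 6 in TGFb libraries (7.59%, background 12.8%). Both counts against control include controls 1 and 2, which stood above all other libraries in this RNA. Calls of these genes without those controls were not counted.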

How the data were processed

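Polyadenylated RNA of 12 LX2 libraries was sequenced as read pairs with a strand-specific kit, per the labels' protocols. Per the submitters' processing notes the tools were cutadapt, HISAT2, StringTie and edgeR and the genome build GRCh38. Their settings, the annotation release and whether counting used strand are not stated in the sources used. Deposited by the authors were estimated counts (expected counts, whole numbers) per gene and per transcript, and FPKM values, in which a count of 0 is listed at 0.0001. Transcript counts summed to the gene count for all 60612 genes.

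Tests on the estimated counts used edgeR 4.0.16 under R 4.3.3 (filterByExpr with minimum count 10 and minimum total count 15, TMM scaling, robust dispersions, quasi-likelihood F test on all 12 libraries with 9 residual degrees of freedom), with Benjamini-Hochberg adjustment over 21328 genes and a threshold of 0.05. The biological coefficient of variation was 28.0%. A standard error (SE) is the absolute log2 fold change divided by the root of the F value. The code was tested on simulated counts. Alternatives used limma 3.58.1, DESeq2 1.42.0 and log2(FPKM + 1) or log2(FPKM + 0.1). At the library totals, 54035320 to 70787741 counts, the lowest count of a member was 180, and precision was set by the spread between replicates. No replicate pair was as alike as counting noise alone allows (chi-square over its degrees of freedom 39.4 to 85.9). Whether replicates were separate cultures is not in the labels, so the spread behind the p-values may be technical. No pairing of samples across groups by replicate number was seen over all genes tested.

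Transcript lengths and types are from GENCODE 29. Because the use of strand is not stated, overlapping genes that passed the threshold in the same direction as a member called there are named beside it (14 members overlap a tested gene on the same strand and 28 on the opposite one). Pseudogenes held over 1% as many counts as the member for MRPS31 (37.2%), MRPL45 (5.53%) and MRPL3 (1.37%).

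Named members were, per comparison, the 5 largest changes in each direction past the threshold, the 5 highest and 5 lowest by mean FPKM, and MRPL12, MRPL58, MRPS18A, MRPS18B, MRPS18C, MRPS30 and MRPS36. Of each other list up to 4 genes past the threshold were named by size, and MT-RNR1, MT-RNR2, TFAM, NRF1, GABPA, PPARGC1A, PPRC1 and MYC always. For 2 called regulators past 1.5-fold between TGFb and control no fold change is given. MRPL11, MRPL13, MRPL20, MRPL22, MRPL37, MRPL39, MRPL40, MRPL48, MRPL50, MRPS7, MRPS21, MRPL30, MRPL49, MRPS16 and MRPS2, and some genes of the other lists, were named after their values were seen. The members and all lists were chosen with earlier results of these data known. GTPBP5, an older name of MTG2, was counted once with it.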

Additional observations from a re-analysis of the deposited data

Results flagged for a closer look

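For each member named by the rule above the 4 libraries of a group were checked for 1 that stood apart. Its gap from the others, relative to the group's range, had to lie above Dixon's 95% critical value. Members named after their values were seen were not checked. Chance flags about 1 in 20 such groups, and 5 of 81 were flagged. MRPL46 had 22 CPM in STINGX+TGFb 2, against 20.5 to 20.6 CPM in the other STINGX+TGFb libraries. MRPS14 had 13.4 CPM in STINGX+TGFb 3, against 17.6 to 18.2 CPM in the others of that group. MRPS10 had 61.9 CPM in TGFb 2, against 55.8 to 56.6 CPM in the other TGFb libraries. MRPS18B had 56.7 CPM in TGFb 3, against 58.3 to 58.5 CPM in the others. MRPL52 had 25.3 CPM in control 1, against 27.0 to 27.3 CPM in the other controls.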

How the results depend on the processing

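Of the calls, 5 of 14 between STINGX+TGFb and TGFb, 8 of 21 between STINGX+TGFb and control and 3 of 10 between TGFb and control held in every setting run, and no named value past the threshold changed direction. For single members named by the rule, without those named after their values were seen, 1881 values kept their side of the threshold, 102 lost it and 42 gained it.

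Between STINGX+TGFb and TGFb, higher members numbered 12 with library size alone and 13 with either FPKM scale, and lower members 5 in those 3 settings, 6 with no filter on low counts and 17 with the 2 groups fitted alone. Of all genes 22.8% to 23.4% were higher and 8.86% to 8.94% lower in those 3 settings. The share lower was 7.21% with no filter and 15.2% with the 2 groups alone. Leaving out 1 library at a time gave 0 to 4 higher (0 without TGFb 3 and 1 without STINGX+TGFb 3) and 5 to 13 lower, beside 11.3% to 13.4% of all genes higher and 11.7% to 13.6% lower. Between STINGX+TGFb and control, higher members numbered 6 with library size alone, 7 with either FPKM scale, 4 with the 2 groups alone, 1 with upper quartile scaling and 5 without controls 1 and 2 together, and lower members 11 with library size alone, 11 with log2(FPKM + 0.1), 12 with log2(FPKM + 1) and 7 without those controls. Of all genes 21.29% to 21.96% were higher and 13.1% to 13.5% lower with library size alone or either FPKM scale. The share higher was 17.0% with the 2 groups alone and 14.5% with upper quartile scaling. Without controls 1 and 2 together 13.1% were higher and 13.1% lower. Leaving out 1 library gave 1 to 3 higher (1 without STINGX+TGFb 2 or 4 or control 3 or 4) and 10 to 20 lower, beside 14.8% to 16.6% of all genes higher and 14.5% to 16.3% lower. Between TGFb and control, higher members numbered 2 with DESeq2, 3 with a filter of 1 CPM, 0 with library size alone, either FPKM scale, no filter, the 2 groups alone or upper quartile scaling, and 7 without controls 1 and 2 together, and lower members 15 with library size alone or either FPKM scale and 4 without those controls. Of all genes 14.3% were higher with DESeq2, 17.3% with the filter of 1 CPM and 6.88% with no filter. The share higher was 10.3% to 11.5% with library size alone, either FPKM scale, the 2 groups alone or upper quartile scaling. With library size alone or either FPKM scale 16.3% to 16.5% were lower. Without those controls 10.5% were higher and 9.74% lower. Leaving out 1 library gave 0 to 5 higher, with 5 without control 1, 2 without control 2, STINGX+TGFb 3 or TGFb 4, and 0 without STINGX+TGFb 2 or 4, TGFb 1 or 3 or control 3 or 4, and 6 to 11 lower. Of all genes 11.3% to 12.4% were higher and 10.7% to 12.1% lower in these settings. Leaving out controls 1 and 2 together was chosen after seeing the data. The ratio of the 90th to the 10th percentile of member levels was 7.91 by FPKM and 4.65 by counts per kilobase, which use other lengths. The cause of the other differences was not tested.

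No pairing of libraries by the replicate numbers of the labels was seen over all genes tested. Of 12 same-numbered pairs 0 had deviations correlated over 0.1 (-0.04 to 0.04), and 5 of 12 libraries matched best with their own number. A pairing confined to part of the genes could not be seen by this check. With the replicate block, members higher and lower numbered 3 and 12 between STINGX+TGFb and TGFb (background, 13.0% and 13.5%), 4 and 17 between STINGX+TGFb and control (background, 17.0% and 16.4%), and 3 and 7 between TGFb and control (background, 12.8% and 12.2%). Depth did not limit the members, but changes below the spread between 4 libraries could not be called.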
